A study of Mus musculus with 12 samples.

Results

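The genes described here, 6 in number, lie in copy number variants described between or within stocks of the strains C57BL/6J (B6) and DBA/2J (D2): Glo1, Btbd9, Alad, Hdhd3, Ide and Fgfbp3. Their RNA was followed in mouse embryonic stem cells. They were listed by name as genes reported duplicated in some stocks, a rule that uses no measured value, and all 6 were found among the 43346 genes of the deposited table, matched by Ensembl identifier in GENCODE M21. They fall into 3 pairs, each on 1 chromosome: Btbd9 with Glo1, Hdhd3 with Alad, and Fgfbp3 with Ide. The question was whether their RNA follows the background strain in all 4 groups of cells. Copy number of the DNA was not measured here.

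A copy number variant is a stretch of chromosome present in more copies in some individuals or stocks than in others, and extra copies of a whole gene are often, though not always, accompanied by more of its RNA. Inbred mouse strains carry many such stretches, and duplications have also arisen within colonies of a single strain. Glo1 encodes glyoxalase 1, which uses glutathione to detoxify methylglyoxal, a reactive by-product of glycolysis. Alad encodes aminolevulinate dehydratase, the second enzyme of heme synthesis. Ide encodes insulin-degrading enzyme, a metalloprotease of the M16 family that cleaves insulin and other short peptides. Fgfbp3 encodes a secreted protein that binds fibroblast growth factors. Btbd9 encodes a protein with a BTB domain, and Hdhd3 is placed by its sequence in the haloacid dehalogenase-like hydrolase family. Duplications of Glo1 with Btbd9, and of Alad with Hdhd3, have been described in DBA/2J among other strains, and a duplication that includes Ide and Fgfbp3 in C57BL/6J stocks.

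RNA was sequenced in 12 libraries, 3 from each of 4 groups. The parental groups were C57BL/6J (B6) and DBA/2J (D2). The others were reciprocal congenic lines that differ from their background strain in a segment of chromosome 13: B6.D2-(rs30079041-rs51756099)/Bakr, here B6-13D2, has the D2 segment in an otherwise B6 genome. The reverse line, D2.B6-(rs29224292-rs13469455)/Bakr, here D2-13B6, has the B6 segment in an otherwise D2 genome. None of the 6 genes lies on chromosome 13. All groups grew in serum medium with LIF, the MEK inhibitor PD0325901 and the GSK3 inhibitor CHIR99021. Per the protocol each strain was sampled as separate cultures of 1 cell line, so the effect of strain cannot be told apart from that of the line, and p-values measure only the spread between cultures. The labels conflict in places: the title of B6 replicate 3 names another line than those of replicates 1 and 2, titles and cell line field disagree on the line used for D2, the titles call the samples technical replicates, the molecule field names genomic DNA where the protocol describes RNA, and the end of the D2-13B6 segment differs in the series text. Column names of the congenic libraries carry a prefix that those of the parental libraries lack, so values within the parental pair and within the congenic pair are each given. The meaning of the prefix is not given. Any difference between a congenic and a parental group cannot be told apart from what it stands for. This holds for both comparisons within a background, for D2-13B6 against B6 and for D2 against B6-13D2. It also touches every count below that uses these comparisons.

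Libraries held 22184196 to 36411799 expected counts, and every pair of replicates differed by more than counting noise (chi-square per degree of freedom 1.95 to 8.6). All 8 embryonic stem cell markers, among them Pou5f1, Nanog and Sox2, were present in every library. Their summed level was 4290 to 4660 CPM (reads scaled to a common library size, by TMM factors) in B6, 3070 to 3150 in D2, 4910 to 5230 in B6-13D2 and 3860 to 3920 in D2-13B6. Between backgrounds 8 of 8 were lower in D2, with a median log2 fold change of -0.39. Markers of feeder cells or fibroblasts were also present, 8 of 8 in every group with none at 0, although the labels mention no such cells. Their summed CPM was 9380 to 10200 in B6, 14200 to 17000 in D2, 3100 to 3180 in B6-13D2 and 7730 to 8050 in D2-13B6. Primitive endoderm markers summed to 7.21 to 15.4 CPM and neural or mesoderm markers to 59.7 to 84.7 CPM over all libraries. In these bulk samples fewer cells of a type and less RNA per cell cannot be told apart. A gene is said to be called where the edgeR quasi-likelihood test gave an adjusted p under 0.05 over all 17148 genes tested, which include all 6.

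Glo1 RNA was higher in both groups of the D2 background than in both groups of the B6 background. The gene lies on the minus strand of chromosome 17 at 30584936 to 30626871 (GRCm38). Its CPM was 119.8, 114.7 and 122.3 in the B6 libraries and 143.5, 148.3 and 145.6 in those of B6-13D2. It was 190.7, 188.3 and 196.2 in D2 and 189.0, 184.5 and 192.5 in D2-13B6. The 6 libraries of the D2 background all lay above the 6 of the B6 background, and within the B6 background the congenic libraries lay above the parental ones. By group, the level ran from 118.9 ± 3.89 (SD, n = 3) in B6 through 145.8 ± 2.42 in B6-13D2 to 188.7 ± 4.00 in D2-13B6 and 191.8 ± 4.05 in D2. The last pair did not differ beyond their spread: the log2 change of D2-13B6 against D2 was -0.02 (95% interval -0.09 to 0.05).

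Between backgrounds, the log2 fold change of Glo1 was 0.69 (SE 0.035) in D2 against B6, which is 1.61-fold (95% interval 1.53 to 1.70), with an edgeR adjusted p of 2.36e-11. It was 0.37 (SE 0.034) in D2-13B6 against B6-13D2, a comparison that shares no library with the first. D2-13B6 against B6 gave 0.67 (SE 0.035) and D2 against B6-13D2 gave 0.39 (SE 0.035). All of these were called and positive. Glo1 was also called within the B6 background, where B6-13D2 stood 0.29 (SE 0.035) above B6 on the log2 scale.

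Some of the reads that resemble Glo1 were assigned elsewhere, and only in 1 background to any extent. The other 5 genes had whole counts in all 12 libraries, whereas Glo1 had them in 5. In the other 7 libraries its expected count and that of Gm13443, a processed pseudogene, added up to a whole number. Gm13443 lies on chromosome 2 and is thus not part of the chromosome 17 region.

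The share of the summed reads assigned to Gm13443 was 8.38% to 9.97% in the D2 libraries and 10.1% to 10.5% in D2-13B6. It was 0.274% in B6 replicate 3 and 0 in the other 5 libraries of the B6 background. In CPM, Gm13443 was at 19.7 ± 1.99 (SD, n = 3) in D2 and 21.6 ± 0.694 in D2-13B6, and at most 0.343 in any B6 library. Whether these reads come from Glo1 transcripts or from the pseudogene cannot be told from the counts. Part of the divided reads may also have stayed with Glo1. The Glo1 values are therefore uncertain in either direction, by an amount that the counts do not give. When both were summed before the fit, an alternative chosen after the divided reads were seen, the level was 119 ± 4.04 in B6, 146 ± 2.44 in B6-13D2, 212 ± 4.94 in D2 and 210.3 ± 4.6 in D2-13B6. For the sum, the parental pair differed by 0.83 on the log2 scale (SE 0.036) and the congenic pair by 0.53 (SE 0.035). Each is larger than that of Glo1 alone, and the sum kept the direction of Glo1 in all 4 comparisons across backgrounds. Gm13443 had almost no reads in the B6 background, so adding its reads raised almost only the D2 side. Both outcomes were thus fixed in advance and are no test of the Glo1 difference. The opposite case, in which reads left with Glo1 belong to the pseudogene, was not tested.

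**Figure D1:**
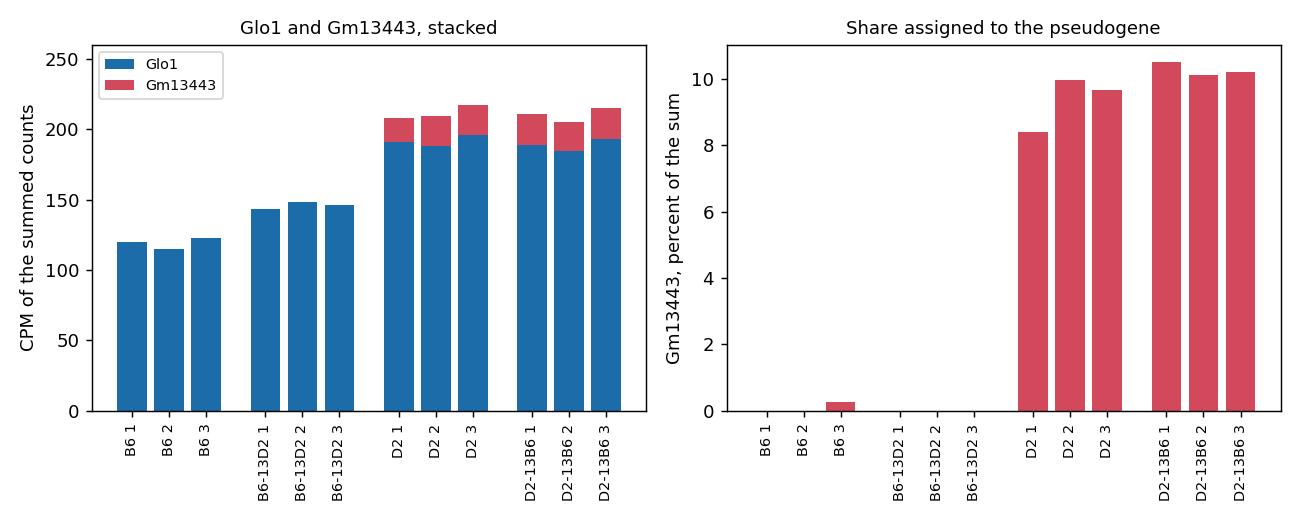
Reads of Glo1 and of the pseudogene Gm13443 in the 12 libraries, stacked in TMM-scaled CPM (left), and the percent of the sum assigned to Gm13443 (right), with 1 bar per library. Gm13443 holds 10.5% or less of the sum in the D2 and D2-13B6 libraries and almost nothing in B6 and B6-13D2.

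Alad was higher in the D2 background too, and its background difference averaged over segments was the largest of the 6 genes. The gene lies on the minus strand of chromosome 4 at 62509169 to 62519918. The B6 libraries had 22.3, 22.5 and 25.5 CPM and the B6-13D2 libraries 31.2, 29.6 and 29.9 CPM. The highest B6 value was that of replicate 3, whose title names another line. The D2 libraries had 45.2, 41.9 and 45.1 CPM and the D2-13B6 libraries 51.7, 53.3 and 52.3 CPM. All libraries of the D2 background lay above all of the B6 background. The group means were 23.4 ± 1.78 (SD, n = 3) in B6, 30.2 ± 0.848 in B6-13D2, 44.0 ± 1.88 in D2 and 52.4 ± 0.796 in D2-13B6.

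The log2 fold change of Alad was 0.91 (SE 0.055) in D2 against B6, a 1.88-fold difference (95% interval 1.73 to 2.03), with an edgeR adjusted p of 2.14e-10. In the congenic pair it was 0.80 (SE 0.050), or 1.74-fold (1.61 to 1.87). The remaining comparisons across backgrounds gave 1.16 (SE 0.053) in D2-13B6 against B6 and 0.54 (SE 0.052) in D2 against B6-13D2. Both congenic lines also stood above their own background strain, by 0.37 (SE 0.056) for B6-13D2 and 0.26 (SE 0.049) for D2-13B6. Alad thus differed between all neighbours in the order of its group levels. The difference between the background effects of the congenic and the parental pair was -0.11 for Alad, with an edgeR adjusted p of 0.245. It was called with a mean CPM minimum of 1 (edgeR adjusted p = 0.0382).

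Ide ran the other way, being highest in B6. The gene lies on the minus strand of chromosome 19 at 37268743 to 37337852. Its level was 315.8, 330.6 and 313.4 CPM in the B6 libraries and 203.6, 193.9 and 196.6 CPM in those of B6-13D2. It was 141.3, 144.9 and 165.6 CPM in D2 and 147.1, 147.2 and 151.0 CPM in D2-13B6. The B6 libraries stood apart from the other 9, and B6 replicate 3, whose title names another line, lay close to replicates 1 and 2. No library of the D2 background reached the lowest of the B6 background, which was a B6-13D2 library.

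The mean level of Ide was 319.9 ± 9.28 CPM (SD, n = 3) in B6, 198.0 ± 4.98 in B6-13D2, 150.6 ± 13.1 in D2 and 148.4 ± 2.21 in D2-13B6. The log2 fold change of D2 against B6 was -1.09 (SE 0.048), so that B6 had 2.13 times the D2 level (95% interval 1.98 to 2.28; edgeR adjusted p = 2.62e-12). D2-13B6 against B6-13D2 gave -0.42 (SE 0.047), with B6-13D2 at 1.33 times the level (1.25 to 1.43). D2-13B6 against B6 gave -1.11 (SE 0.047) and D2 against B6-13D2 gave -0.40 (SE 0.048). Within the B6 background, B6-13D2 against B6 gave -0.69 (SE 0.047), a larger step than either background difference that involves B6-13D2. Both groups of the D2 background differed by -0.02 (95% interval -0.12 to 0.08), which was not called.

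**Figure D2:**
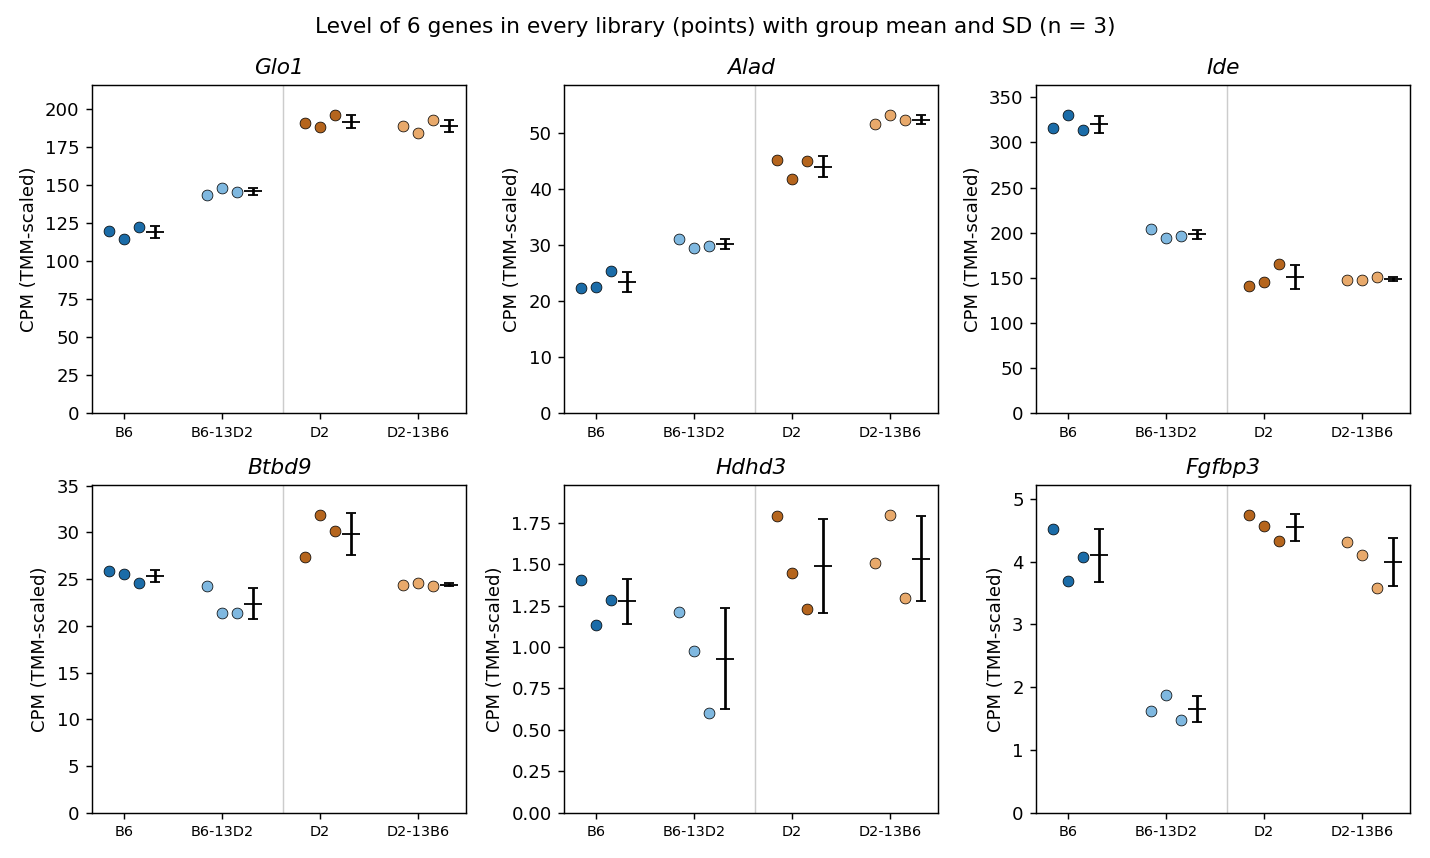
Level of each of the 6 genes in every library, in TMM-scaled CPM, with 1 panel per gene, a point per library and the group mean and SD. Glo1 and Alad lie higher in both D2-background groups, Ide lies highest in B6, and Fgfbp3 lies lowest in B6-13D2.

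The partner genes of these 3 were each called in 2 of the 4 comparisons across backgrounds. Btbd9, next to Glo1, lies on the minus strand of chromosome 17 at 30215524 to 30576488. Its CPM was 25.9, 25.6 and 24.6 in B6, 27.4, 31.9 and 30.2 in D2, 24.3, 21.4 and 21.4 in B6-13D2, and 24.3, 24.6 and 24.3 in D2-13B6. Only the D2 libraries stood above all others. D2 stood 0.24 above B6 on the log2 scale (SE 0.063; edgeR adjusted p = 0.00312), or 1.18-fold. D2 against B6-13D2 gave 0.42 (SE 0.062; edgeR adjusted p = 8.09e-06), the largest of its changes across backgrounds. The congenic pair gave 0.13 (SE 0.062), with an edgeR adjusted p of 0.0781, and D2-13B6 against B6 gave -0.05 (SE 0.063), neither called. The congenic pair was called with library totals (0.16; edgeR adjusted p = 0.0353) and without B6-13D2 replicate 1 (0.19; edgeR adjusted p = 0.0185). Both congenic lines were called lower than their own background strain, B6-13D2 at -0.18 (SE 0.064) and D2-13B6 at -0.29 (SE 0.061). The former call was lost with other scalings, with an edgeR adjusted p of 0.127 under RLE size factors, and with any of 4 single libraries left out.

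Hdhd3, the partner of Alad, lies on the minus strand of chromosome 4 at 62499008 to 62503467 and had few reads. Its CPM was 1.41, 1.13 and 1.29 in B6, 1.79, 1.45 and 1.23 in D2, 1.21, 0.973 and 0.604 in B6-13D2, and 1.51, 1.80 and 1.29 in D2-13B6. These values rest on 16 to 65 counts per library. The B6-13D2 libraries lay below those of D2 and of D2-13B6, and all other pairs of groups overlapped. The log2 fold change was 0.23 (95% interval -0.31 to 0.76) in D2 against B6, which was not called. It was 0.72 (SE 0.251) in D2-13B6 against B6-13D2, with an edgeR adjusted p of 0.0168, a call lost without B6-13D2 replicate 3 (log2 0.49) or without D2-13B6 replicate 2 (log2 0.58). D2 against B6-13D2 gave 0.67 (SE 0.258), a call lost without D2 replicate 1 (0.51) or without B6-13D2 replicate 3 (0.44). D2-13B6 against B6 gave 0.27 (95% interval -0.25 to 0.79), which was not called. In these 4 comparisons Alad had 0.91, 0.80, 0.54 and 1.16, inside the interval of Hdhd3 in both that involve B6-13D2 (0.19 to 1.25 and 0.12 to 1.21) and above it in both that involve B6.

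Fgfbp3, the partner of Ide, lies on the minus strand of chromosome 19 at 36917550 to 36919615. It had 4.52, 3.69 and 4.07 CPM in B6, 4.75, 4.56 and 4.33 in D2, and 4.30, 4.10 and 3.57 in D2-13B6. The B6-13D2 libraries had 1.63, 1.88 and 1.47 CPM, below all 9 others. Fgfbp3 was called in both comparisons across backgrounds that involve B6-13D2, at 1.26 (SE 0.143) in D2-13B6 against B6-13D2 and 1.45 (SE 0.144) in D2 against B6-13D2. D2 against B6 was 0.15 (95% interval -0.12 to 0.43) and D2-13B6 against B6 was -0.03 (-0.31 to 0.24), neither called. B6-13D2 against B6 gave -1.30 (SE 0.148; edgeR adjusted p = 6.38e-07), and B6 had 2.46 times its level (95% interval 1.98 to 3.05). B6-13D2 is also the group with the lowest sum of fibroblast markers, 3100 to 3180 CPM against 7730 or more in the other groups, and the part of this in the Fgfbp3 result was not tested.

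**Figure D3:**
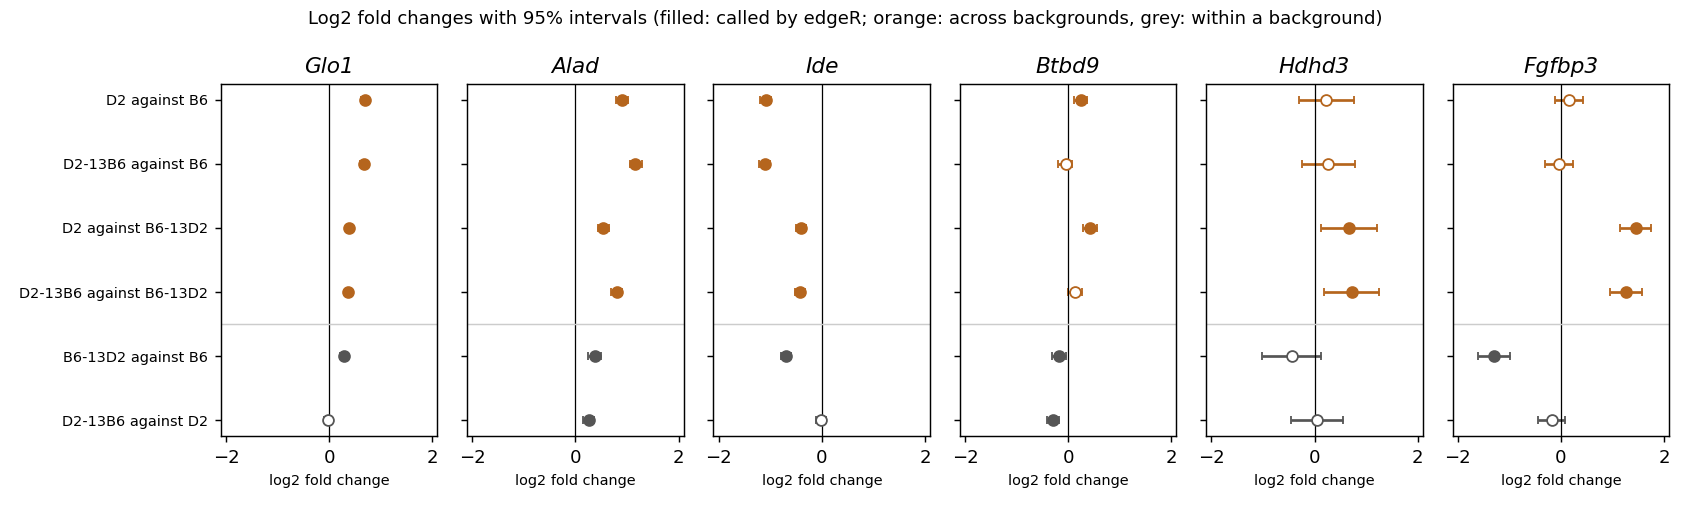
Log2 fold change of the 6 genes with 95% interval in the 4 comparisons across backgrounds and the 2 within a background (edgeR; filled points were called). Glo1 and Alad lie to the right of 0 and Ide to the left in every comparison across backgrounds. B6-13D2 against B6 was called for every gene but Hdhd3, with the largest steps for Ide and Fgfbp3.

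Differences of this kind were common in these cells, so the counts of called genes are read beside the share over all genes tested. D2 against B6 called 4 of the 6 genes, where 60.0% of all genes were called. D2-13B6 against B6-13D2 called 5 of 6 (70.2% of all genes), D2-13B6 against B6 called 3 (59.0%) and D2 against B6-13D2 called all 6 (74.6%). Within a background, B6-13D2 against B6 called 5 of 6 (58.3% of all genes) and D2-13B6 against D2 called 2 (57.3%). With the groups averaged, D2 background against B6 background called all 6 (73.5%), and D2 segment against B6 segment called 3 (43.9%). With so few genes, these counts do not set the 6 apart from all genes.

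Glo1, Alad and Ide, 3 of the 6, were called with the same sign in all 4 comparisons across backgrounds, which are not independent since they share libraries. The same was true of 24.3% of all genes tested. By direction, Glo1 and Alad were among the 9.06% higher in the D2 background, and Ide was among the 15.3% lower. Of all genes that followed the background, 37.3% were higher with TMM factors, 45.0% with RLE size factors and 49.6% with library totals, so the split by direction depends on the scaling. The libraries of both backgrounds did not overlap for the same 3 genes and for 26.1% of all genes. A stricter description, added after the values were seen, asks that the smallest change across backgrounds exceed the largest within a background. Glo1 met it (0.37 against 0.29), as did Alad (0.54 against 0.37), and Ide did not (0.40 against 0.69). Of all genes, 14.7% met it. With 6 genes, these counts do not show that the set differs from other genes.

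Averaged over segments, the log2 background effect was 0.85 (SE 0.037) for Alad, 0.71 (SE 0.097) for Fgfbp3, 0.53 (SE 0.025) for Glo1, 0.47 (SE 0.179) for Hdhd3, 0.18 (SE 0.044) for Btbd9 and -0.75 (SE 0.033) for Ide. The effect of Alad was larger in size than that of 79.7% of genes tested, that of Ide than 75.8%, that of Fgfbp3 than 74.0%, that of Glo1 than 64.6%, that of Hdhd3 than 60.5% and that of Btbd9 than 29.2%. The average for Fgfbp3 rests on B6-13D2, and that of Hdhd3 lost its call when any of 4 libraries was left out: the edgeR adjusted p was 0.0579 without B6 replicate 2, 0.0659 without D2 replicate 1, 0.0712 without B6-13D2 replicate 3 and 0.0705 without D2-13B6 replicate 2. The fibroblast markers were higher in the D2 background in this average, 8 of 8 with a median log2 fold change of 1.17, but 4 were higher and 4 lower in D2-13B6 against B6. Of these 8, 4 followed the background, as did 6 of the 8 embryonic stem cell markers, which were lower. The part of these markers in the differences of the 6 genes was not tested.

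The background effect was not equal in the parental and in the congenic pair for 3 genes. For Glo1 it went from 0.69 to 0.37, a difference of -0.32 (edgeR adjusted p = 4.85e-05). For Ide it moved from -1.09 to -0.42, a difference of 0.67 (edgeR adjusted p = 3.23e-07), and for Fgfbp3 from 0.15 to 1.26, a difference of 1.11 (edgeR adjusted p = 0.000169). In each case B6 and B6-13D2 differed by more than D2 and D2-13B6 did. In this design the difference between pairs is the same quantity as the effect of the chromosome 13 segment averaged over backgrounds times -2, so the segment effect and an unequal background effect cannot be told apart. For Btbd9, Alad and Hdhd3 it was not called with the filter used.

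**Figure D4:**
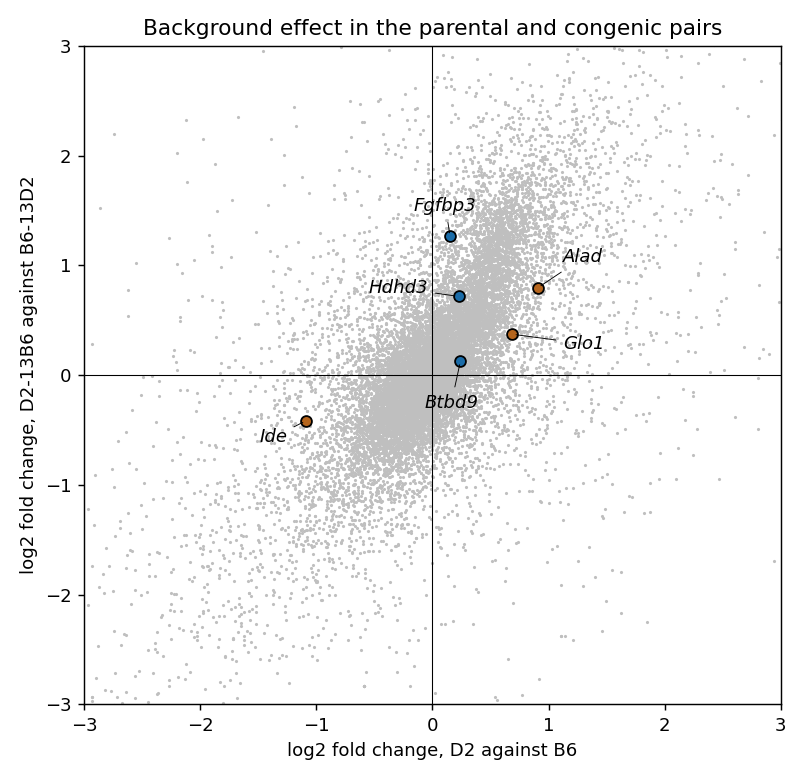
Log2 fold change of D2 against B6 (x axis) and of D2-13B6 against B6-13D2 (y axis), which share no library, for all genes tested (grey) and the 6 genes (labelled; orange where the gene followed the background, blue where it did not). Alad lies near the diagonal, Glo1 and Ide lie closer to 0 on the y axis than on the x axis, and Fgfbp3 lies near 0 on the x axis only; 448 genes fall outside the axes.

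Genes around each pair were examined to see where along the chromosome the difference extended. Within 1 Mb of the pairs, 66 other genes were tested and 17 followed the background (25.8%, against 24.3% of all genes), 4 higher and 13 lower in D2. Around Btbd9 and Glo1, 7 of 31 did (22.6%), 2 higher and 5 lower, and the median log2 background effect was -0.25. The nearest of these higher in D2 was Mdga1, 245.4 kb away, at 0.66 (SE 0.062). Zfand3, 4.7 kb from Btbd9, was called higher in D2 on average (0.27, SE 0.038) and in 3 of the 4 comparisons across backgrounds, with -0.07 in D2-13B6 against B6. Dnah8, an axonemal dynein gene, and 1700097N02Rik overlap the Glo1 gene body. Their background effects were 0.59 and -0.26, neither followed the background in every comparison, and since their counts were divided in all 12 libraries they are uncertain.

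Around Hdhd3 and Alad, 4 of 15 genes followed the background (26.7%), 1 higher and 3 lower, with a median of -0.04. Bspry, only 1.7 kb from Hdhd3, went opposite to Alad, with 6.42 ± 0.0904 CPM in B6, 10.6 ± 0.687 in B6-13D2, 2.05 ± 0.211 in D2 and 1.92 ± 0.292 in D2-13B6 (SD, n = 3), a log2 background effect of -2.05 (SE 0.086). Pole3, a DNA polymerase epsilon subunit gene 2.7 kb from Alad on the other side, had 0.03, which was not called. Slc31a2 was higher by 0.45 (SE 0.068) and Cdc26, a subunit gene of the anaphase-promoting complex, was lower (-0.76, SE 0.047). Bspry and Pole3, which flank the pair, thus did not share the change of Alad.

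Around Fgfbp3 and Ide, 6 of 20 genes followed the background (30.0%), 1 higher and 5 lower, with a median of 0.04. Between the pair lie Btaf1, Cpeb3 and March5, whose background effects were -0.10, 0.26 and 0.11, and none of them followed the background. Kif11, a mitotic kinesin gene 38.6 kb from Ide, was lower in the D2 background (-0.50, SE 0.029), with 161.3 ± 6.09 CPM in B6, 173.6 ± 6.77 in B6-13D2, 111.8 ± 4.6 in D2 and 126 ± 2.54 in D2-13B6. Tnks2, a tankyrase gene 24.1 kb from Fgfbp3, was lower too (-0.33, SE 0.020). Unlike Ide, both had a higher mean in B6-13D2 than in B6. Myof, which encodes a membrane repair protein, was higher by 1.47 (SE 0.023) on average. In D2-13B6 against B6 it was higher by only 0.35 (SE 0.031), and B6-13D2 against B6 gave -1.71 (SE 0.034).

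**Figure D5:**
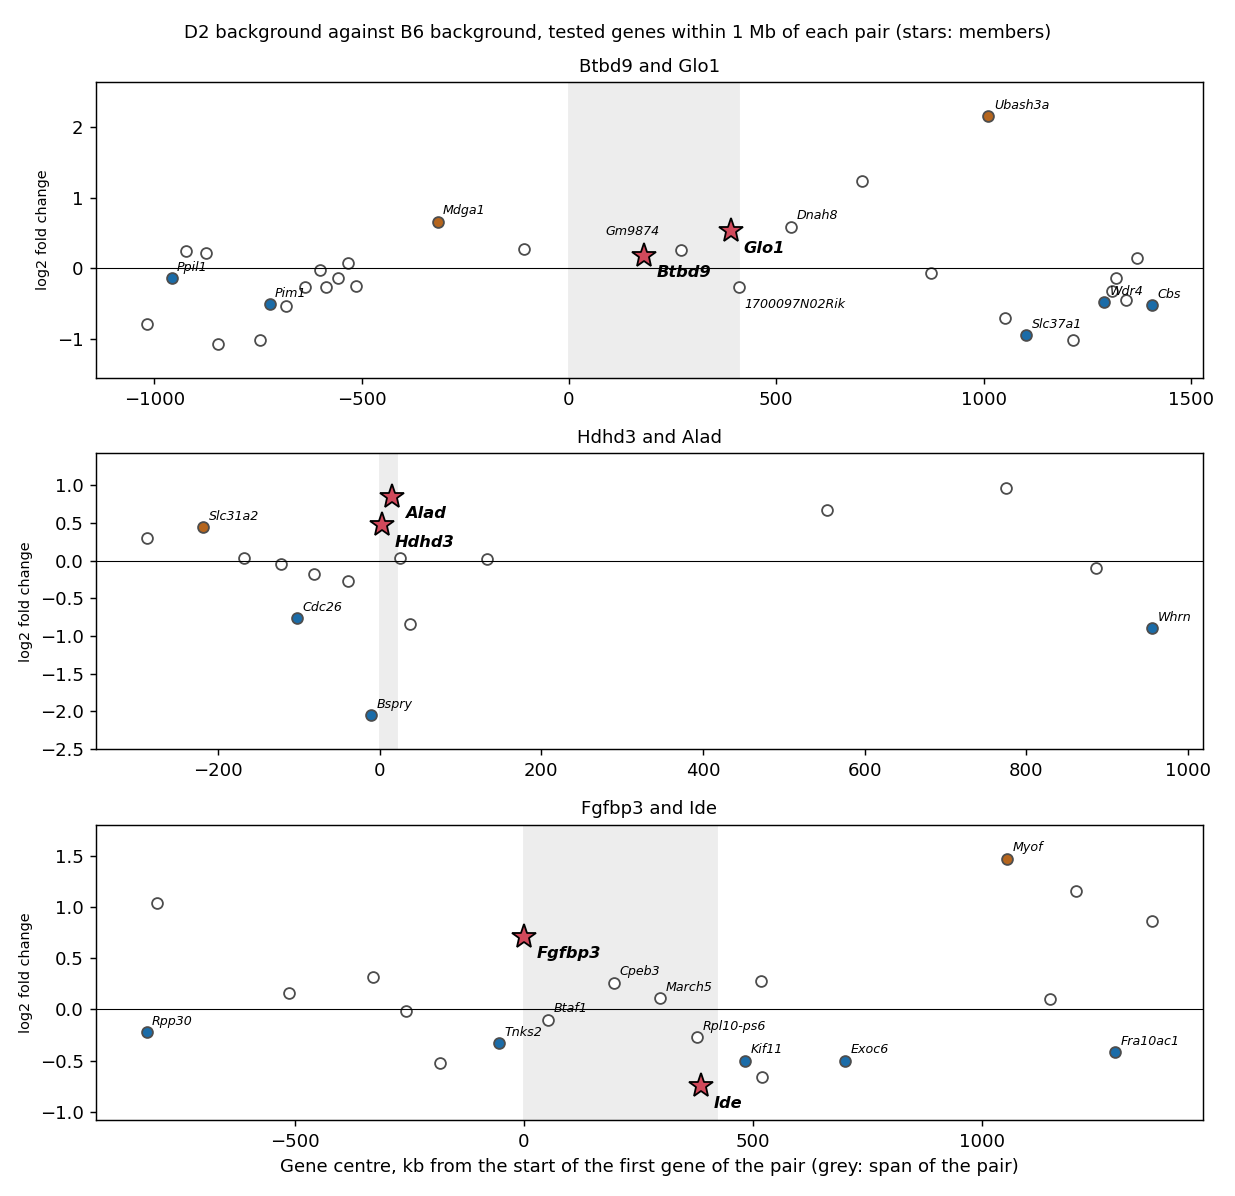
Log2 background effect (y axis, edgeR) of the tested genes within 1 Mb of each pair by the distance of the gene centre from the start of the pair in kb (x axis), with 1 panel per pair. Stars are the 6 genes, filled circles followed the background (orange higher, blue lower in D2), open circles did not, and grey marks the span of the pair; Bspry lies far below Alad, and Cpeb3 and March5 lie above Ide.

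In the list made for the pathway of Glo1, methylglyoxal removal, 12 of 14 other genes were called between backgrounds, 4 higher and 8 lower in D2. The median log2 fold change was -0.21 beside 0.028 over all genes. The 8 lower include Ager (-0.78), a receptor gene rather than one of removal. Akr1b8, an aldo-keto reductase gene, was highest at 0.78 (SE 0.052), and Aldh9a1, an aldehyde dehydrogenase gene, lowest at -1.05 (SE 0.035). Akr1b8 did not follow the background, with -0.06 (SE 0.071) in D2-13B6 against B6. Those that followed the background were Akr1b3 (0.37) upward, and Park7 (-0.38), Aldh2 (-0.41), Aldh9a1 and Gsr (-0.51), which encodes glutathione reductase, downward. The direction of Glo1 was thus shared by 1 of the 5 that followed the background. Of the genes of heme synthesis and breakdown beside Alad, 12 of 16 were called, 5 higher and 7 lower (6 and 6 with RLE size factors), with a median of -0.08. Hmox1, the inducible heme oxygenase, was highest at 0.34 (SE 0.029) but did not follow the background, and Blvrb, a biliverdin reductase gene, was lowest at -0.64 (SE 0.040). Blvrb and Tmem14c (-0.44), a mitochondrial porphyrin transporter gene, followed the background, both lower.

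Among M16 proteases and insulin receptor genes beside Ide, 10 of 11 were called, 6 higher and 4 lower (7 and 3 with RLE size factors), with a median of 0.22. Insr, the insulin receptor gene, was higher in the D2 background by 0.34 (SE 0.042) and followed it, as did the mitochondrial processing peptidase gene Pmpcb (0.22). The related Pitrm1 (-0.23) and Uqcrc2 (-0.24) were lower and followed it too. Irs1, which encodes an insulin receptor substrate, had the largest rise at 1.03 (SE 0.069) but did not follow the background: D2-13B6 against B6 gave -0.44 (SE 0.090; 20.4 ± 1.09 against 27.8 ± 2.23 CPM, SD, n = 3).

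Of the FGF binding protein, ligand and receptor genes beside Fgfbp3, 11 of 13 were called, 9 higher and 2 lower, with a median of 0.70. Fgfbp1, the related binding protein, was higher by 2.24 (SE 0.069), with 2.76 ± 0.201 CPM in B6, 2.09 ± 0.221 in B6-13D2, 13.6 ± 0.169 in D2 and 9.61 ± 0.348 in D2-13B6 (SD, n = 3). Unlike Fgfbp3, it followed the background, as did Fgf15 (2.21) and Fgfr3 (0.91) upward and Fgf4 (-1.15), a ligand made by embryonic stem cells, and Fgf17 (-2.75) downward. In the same average the fibroblast markers were higher in 8 of 8 cases and the embryonic stem cell markers lower in 8 of 8, and their part in this list was not tested.

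For BTB domain and cullin 3 genes beside Btbd9, 12 of 15 were called, 6 higher and 6 lower (7 and 5 with library totals), with a median of -0.08. Spop, a substrate adaptor of cullin 3, was highest at 0.52 (SE 0.024) and Btbd2 lowest at -0.65 (SE 0.039), and both followed the background with Btbd7 (0.38). For haloacid dehalogenase family genes beside Hdhd3, 9 of 12 were called, 2 higher and 7 lower, with a median of -0.18. Pmm2, which encodes a phosphomannomutase, was the higher end of the called genes at 0.12 (SE 0.040), and Lhpp, a phosphatase gene, was lowest at -1.81 (SE 0.045). Lhpp and the serine synthesis phosphatase gene Psph (-0.82) followed the background, both lower. All of these counts stand beside 73.5% of all genes called in the same comparison.

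Genes whose log2 CPM moved most like each of the 6 over the 12 libraries were found by the root mean square (RMS) difference of centred values. This is a description, since the libraries fall into 4 groups that share lines. Glo1 was closest to Gm38312 on chromosome 1 (RMS 0.071, r = 0.994) and Pcx on chromosome 19 (0.075, r = 0.965), and Alad to Nmnat2 on chromosome 1 (0.077, r = 0.986) and Wnk3 on the X chromosome (0.109, r = 0.976). Ide was closest to Zfp518a, also on chromosome 19 (0.117, r = 0.976), and Tchh (0.120, r = 0.983). Fgfbp3 was closest to Arhgef26 (0.129, r = 0.975) and Cd80 (0.137, r = 0.978), Btbd9 to Dennd5a (0.059, r = 0.943) and Gm16286 (0.060, r = 0.932), and Hdhd3 to Wdr60 (0.147, r = 0.920) and Tmem241 (0.168, r = 0.903). Counts of Gm16286 and Wnk3 were divided in all or most libraries, so these are uncertain.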

How the data were processed

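The deposited values are expected counts per Ensembl gene and library, which need not be whole. Per the file's title the authors made them with EMASE, which divides reads that map to several places. Bowtie 1.0.0, edgeR 3.34.1 and the build mm10 are named in the submitters' processing notes; the annotation release and strand use are not given in the sources used here. Of all values, 88.1% were whole to within 1e-06. Symbols and positions came from GENCODE M21 (GRCm38): 42462 of 43346 identifiers matched, and the 884 others held 0.361% of reads.

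Counts were rounded to whole numbers. The test was edgeR 4.0.16 (R 4.3.3), with TMM factors, genes kept by filterByExpr (group-wise, minimum 10 counts), a quasi-likelihood fit of 4 group means over 12 libraries, and Benjamini-Hochberg adjustment at 0.05 per comparison over 17148 genes. Standard errors are the absolute log2 fold change over the square root of F. Adjusted p-values in the text are from this edgeR fit unless another setting is named. Those given with another scaling, another filter or a library left out are from edgeR fits changed in that way. The fit was tested on simulated data. The sequence comparison of Glo1 with Gm13443 is not reported here. Named were the 6 genes, neighbours within 1 Mb, the extremes among called genes of each list and its genes that followed the background, and the 2 most alike genes of mean log2 CPM 2 or more (offset 0.1 CPM). Alternatives were DESeq2 1.42.0, RLE size factors, library totals, keeping every gene, a mean CPM minimum of 1, a block on replicate number, fits restricted to the groups compared, and each library left out. The rule for the 6 genes uses no measured value, but the genes and lists were chosen with earlier results of these data known. Summing Glo1 with Gm13443 and the stricter background rule were added after the values were seen.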

Additional observations from a re-analysis of the deposited data

Results flagged for a closer look

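The background difference of Glo1, Ide and Fgfbp3 was not the same between the parental strains and between the congenic lines, by a test of that difference in the edgeR fit. Glo1 had a log2 fold change of 0.69 in the parental pair and 0.37 in the congenic pair, a difference of -0.32 (edgeR adjusted p = 4.85e-05). Ide had -1.09 and -0.42, a difference of 0.67 (edgeR adjusted p = 3.23e-07). Fgfbp3 had 0.15 and 1.26, a difference of 1.11 (edgeR adjusted p = 0.000169). All 3 tests compare the same 12 libraries, and over all genes 43.9% passed the same test.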

How the results depend on the processing

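Calls of Glo1, Alad and Ide across backgrounds kept direction and call under every alternative run. Of 48 log2 fold changes (6 genes, 8 comparisons), 45 kept both with DESeq2 and with RLE size factors, 42 with library totals, 47 with no filter and 46 with a CPM minimum of 1; 558 of 576 did with each library left out. Changes of sign fell on differences that were not called: D2-13B6 against B6 was -0.05 for Btbd9 but 0.00 (RLE), 0.05 (library totals), 0.01 (only the libraries compared) and 0.00 (DESeq2), and -0.03 for Fgfbp3 but 0.02, 0.07, 0.03 and 0.02. For D2-13B6 against D2, library totals gave 0.04 for Glo1 and 0.05 for Ide, and no filter gave 0.00 for Ide. With each library left out, Fgfbp3 in D2-13B6 against B6 ranged from -0.11 to 0.04, and in D2-13B6 against D2 Ide ranged from -0.05 to 0.05 and Hdhd3 from -0.09 to 0.20. The cause was not tested. The stricter background rule left 2516 genes against 4169, by construction. With the replicate block no call of the 6 genes changed and 4126 genes followed the background; same-numbered libraries did not deviate together (mean r -0.011 over 18 pairs, -0.125 to 0.068; 4 of 12 libraries matched best with their own number). Library totals shifted the median of D2-13B6 against B6 by 0.107. Depth limits Hdhd3, and divided reads limit Glo1.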
